A study of Mus musculus with 8 samples.

Results

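The 4 control libraries of a mouse embryo study are described here, out of 8 libraries in all. They were chosen by their labels alone, and every protein-coding gene of the deposited table was ranked by its mean level over them. The series concerns inhibition of the acetyltransferases p300 and CBP and measured polyadenylated RNA of morulae after culture with or without the inhibitor A485. The 4 libraries with A485 enter none of the values given here. Control embryos were wild-type and were kept in KSOM, a medium for preimplantation embryos, with 0.1% DMSO, the solvent of the inhibitor, from the 4-cell stage. The protocol runs that culture to the blastocyst stage, whereas the tissue label and the extraction protocol name the morula. Each library pooled 3 embryos, whose zona pellucida had been removed with acid, and cDNA was amplified before library construction with a kit for low input. The sources used here give neither strain nor sex of the embryos. The labels call each pool a biological replicate but do not say whether the pools were from different litters, so the spread between them may be partly technical.

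A mouse morula is the compacted ball of cells between the cleavage stages and the blastocyst. Its cells tighten their contacts, gain an outer apical side, and begin to separate into outer cells that form the trophectoderm and inner cells that form the inner cell mass. By then most messages stored in the oocyte have been degraded and the embryonic genome is active. Carbon use is moving from pyruvate and lactate towards glucose.

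Levels are given as TPM, the share of a gene among all transcripts after division by transcript length, scaled to a fixed total, so that genes can be compared with each other within a library. Values in a series are in the order of control replicates 1, 2, 3 and 4, and a mean is followed by the SD over these 4 libraries. A gene was counted as expressed when its mean was at least 1 TPM. Total estimated counts were 23641781 to 25677701 per library, and genes at about 1 TPM had a median of 72 counts. A count of 0 in a library allows a level of up to 0.117 to 0.127 CPM (counts scaled to a fixed library total, not divided by length), for counting error only. Genes outside the naming rule given with the processing were named after their values were seen.

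The control morulae expressed 8727 of 18257 genes, or 47.8%. In every one of the 4 libraries 8064 genes reached 1 TPM, while 1266 did so in 1 to 3 libraries and 8927 in none. No estimated count fell on 1297 genes. The 190 genes of at least 1000 TPM held 56.5 ± 1.23% of all TPM (SD, n = 4), and the 1100 genes between 100 and 1000 TPM held 31.3 ± 0.715%. Another 2974 genes lay between 10 and 100 TPM with 10.3 ± 0.462% of TPM, and 4463 genes between 1 and 10 TPM with 1.70 ± 0.0753%. Thus 137 genes made up 50% of the transcripts and 1544 genes made up 90%. The 10 most abundant genes alone held 9.85 ± 0.252% and the 100 most abundant 43.9 ± 1.04%. Genes in the higher TPM classes had shorter transcripts. The median length of the longest annotated transcript was 3192 bases between 1 and 10 TPM and 2334 bases between 10 and 100. It was 1586 bases between 100 and 1000, and 1085 bases from 1000 TPM upward. TPM is itself divided by length, so the classes are not independent of it. Length was not compared on a scale without that division. In the plot of level against rank the 4 libraries gave nearly the same curve over this whole range.

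**Figure D1:**
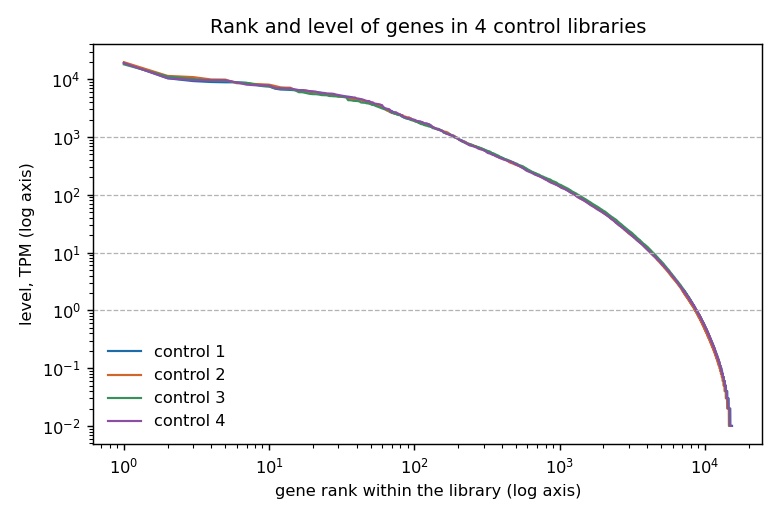
Level of each gene (TPM, log axis) against its rank within the library (log axis), with 1 line for each of the 4 control libraries. The lines lie on each other from the most abundant gene, Rpl41 at 18976 TPM on average, down to genes under 1 TPM; dashed lines mark the class borders at 1, 10, 100 and 1000 TPM.

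Ribosomal proteins, the protein components of both ribosomal subunits, were the largest group. Of 85 listed genes 84 were expressed, 98.8% against 47.8% of all genes, and 73 reached 1000 TPM. Their summed level was 300039, 300319, 282477 and 311265 TPM, or 29.9% of all TPM on average, with control replicate 3 the lowest. They took 12 of the 20 and 33 of the 50 most abundant places. Rpl41, which encodes a very short ribosomal peptide, was the most abundant gene of all at 19209.6, 19663, 18042 and 18990.5 TPM. Rps2 (9258, 9817, 8637 and 9584 TPM), Rps19 (8242 TPM on average) and Rps18 (7705) followed within the group. At the other end Rps6, a small-subunit protein and target of growth signalling, was listed at 77.04, 74.9, 79.5 and 73.5 TPM, and Rpl3l, a muscle form, at 0.188 TPM. Ribosomal protein genes have many near-identical processed copies in the mouse genome, so the division of reads among them, and single levels such as that of Rps6, are uncertain.

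Messages of ribosomal proteins are known to begin with a C followed by a run of pyrimidines, the element through which growth signals control their translation. The stretches around the annotated start are shown for the 12 most abundant ribosomal protein genes with a single RefSeq promoter window (GRCm38.p6), to let a reader see what their annotated starts look like. Each line gives 10 bases before and 15 bases from the start on the gene's strand, and capitals mark the run of pyrimidines (C or T) that begins at the start itself.
Rpl41: gggccggctcggaagtgacgacacc
Rps2: gtcgagatctCgcgcttcttggagc
Rps18: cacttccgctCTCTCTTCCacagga
Rpl35: ccgccctttcCTCTTTCTCTCgaac
Rpl13: tttcgcctgaTTTTgattggcgttt
Rps16: ttctgtcgtgacgtagcactcaatg
Rps26: gcaagccgccggatcctctttcgag
Rps27: cgctttcgctCCTTTCCggcggtga
Fau: gcccccacttCTTCCTCTTTCTTga
Rpl26: ggcaacttacagaaccggaagtcgc
Rplp0: cgggtttcgaggaccgcctggttct
Rps28: cgcgtgcggtCTCgcgagagcgaaa
Runs of at least 7 pyrimidines began at the annotated start in 4 of the 12 genes, Rps18, Rpl35, Rps27 and Fau, the longest having 13 bases in Fau. In 5 genes the annotated start was itself a purine, and in 3 the run had 1 to 4 bases. These are properties of the annotation, and the start sites used in the embryos were not measured. With 5217 TPM for Fau, which encodes a ribosomal protein fused to a ubiquitin-like peptide, and 18976 TPM for Rpl41, both kinds of annotated start occurred among the most abundant messages.

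Besides ribosomal proteins, the 20 most abundant places held 2 genes of the pluripotent state, Dppa3 and Dppa5a, a chaperone, a polyubiquitin gene, a homeobox gene, a metallothionein and a ferritin chain, and 1 predicted gene. Dppa3 (also known as Stella), a factor that protects the maternal genome from demethylation, came directly after Rpl41 with 10345, 11381, 11093 and 10409 TPM, a CV (SD over mean) of 4.73%. It lies at chr6:122626424-122630271. Dppa5a, an RNA-binding protein of pluripotent cells, had 6419.6, 7112, 6509 and 6376 TPM. Both were nearly level across the libraries. Hspa8, the constitutive chaperone Hsc70, had 9687 ± 822 TPM (SD, n = 4) and Ubb, a polyubiquitin gene, 8779 ± 506 TPM. Proteins of autophagosome membranes were also among the 50 most abundant, with Gabarapl2 at 5305 ± 255 TPM and Map1lc3b at 4383 ± 127 TPM. Others in that range were Eif5a (5382 TPM), a translation factor, the tetraspanin Cd63 (5236), the cyclophilin Ppia (5014), the nucleolar protein Npm1 (4056) and Timd2 (4734), which encodes a receptor for ferritin.

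Antioxidant and metal-binding genes were expressed in 28 of 30 cases, 93.3% against 47.8% of all genes. Their median was 143.9 TPM, against 0.82 TPM over all genes. The metallothioneins Mt1 and Mt2, small cysteine-rich proteins that bind zinc and copper, and the ferritin light chain Ftl1, which stores iron, led the list. Mt1 had 8589, 9868, 8135 and 7039 TPM, highest in control replicate 2 and lowest in control replicate 4. Mt2 had 5781, 5398, 5040.4 and 4821 TPM, and Mt1 exceeded it in 4 of 4 libraries, by 0.67 ± 0.15 on the log2(TPM + 0.1) scale (SD, n = 4). The brain metallothionein Mt3 averaged 0.147 TPM. Ftl1 had 8813, 7207, 7632 and 7840.0 TPM and the heavy chain Fth1 2254 ± 137 TPM. Gpx4, the peroxidase that reduces lipid peroxides, reached 1298 ± 85.2 TPM, and the thioredoxin system was present with Txn1 at 499 TPM and Prdx1 at 543 TPM. Catalase (Cat, 10.8 TPM) and the glutathione-synthesis subunit Gclc (0.315 TPM) were far lower.

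Metallothionein genes are switched on by zinc through the factor MTF1, which binds short metal response elements. The RefSeq promoter window of Mt2 is printed because this gene ranked 27 and its window held 5 matches to the letters TGCNCNC, where N is any base. These letters are looser than the usual core TGCRCNC, in which R is A or G. It covers chr8:94172368-94172617 on the plus strand (GRCm38.p6), the 250 bases before the annotated start, and capitals mark the matches on either strand.
Mt2: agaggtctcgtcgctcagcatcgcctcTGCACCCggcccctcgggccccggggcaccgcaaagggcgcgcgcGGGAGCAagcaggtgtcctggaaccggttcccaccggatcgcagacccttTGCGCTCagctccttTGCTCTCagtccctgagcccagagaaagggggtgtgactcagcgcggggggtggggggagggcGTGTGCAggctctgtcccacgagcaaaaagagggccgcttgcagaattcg
The matches began at positions -223, -178, -128, -113 and -50 from the start, on the plus strand except for those at -178 and -50. Those at -178 and -113 have T at the R position and so lack the usual core. The searched letters are common: in the 250 bases before the start, 44.4% of 32851 promoter windows held at least 1 match and 0.344% held at least 5. The window of the neighbouring gene Mt1 held 1 match in the 250 bases before its own annotated start. Bases after the annotated start were not searched for either gene, so the counts depend on where the start is annotated. A match is not a measured binding site.

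In the authors' annotation 1471 genes were transcription factors, of which 566 (38.5%) were expressed and 24 reached 100 TPM. Of the other genes 48.6% were expressed; the difference was not tested. The shares differed between families: 246 of 545 zinc finger genes of the C2H2 class were expressed, 29 of 198 homeobox genes, 28 of 95 bHLH genes, 7 of 40 forkhead genes, 8 of 27 ETS genes and 19 of 28 MYB genes. Crxos, a homeobox gene that is transcribed opposite the retinal factor gene Crx, had the highest level of any annotated factor, 6613, 8456, 10081 and 9559 TPM, with control replicate 1 the lowest. Crx itself averaged 0.075 TPM. The sources used here do not give strandedness, so reads of overlapping opposite-strand genes cannot be told apart. After Crxos came general nucleic acid binding proteins, Nme2 (3356 TPM), Zfp706 (1907) and Cnbp (932), then Pou5f1 (681), Ybx1 (620.5) and the epithelial ETS factor Elf3 (347 ± 30.5 TPM).

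Of 36 pluripotency and inner cell mass genes, 28 were expressed, 77.8% against 47.8% of all genes, and 11 reached 100 TPM. The list median was 13.6 TPM against 0.82 TPM over all genes. Because whole embryos were pooled, a low level may mean few expressing cells or little RNA per cell, and these cannot be told apart. Pou5f1 (Oct4), the POU factor at the centre of the pluripotency network, ranked 264 with 589, 762, 675 and 699.9 TPM and lies at chr17:35506032-35510777. Nanog, a homeobox factor that later marks the epiblast, had 96.5, 214, 116 and 146 TPM, highest in control replicate 2 and lowest in control replicate 1. Zfp42 (Rex1), a zinc finger factor, was steadier at 131, 125, 119 and 117 TPM. Spic, an ETS factor, varied almost as much as Nanog, with 213, 102, 193 and 138 TPM, and there control replicate 2 was the lowest.

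Sox2, the usual partner of Pou5f1, was close to absent at 0.30, 0, 0.20 and 0.38 TPM, with 48 counts over the 4 libraries. Another member of its family, Sox15, was abundant at 351, 241, 314 and 250.3 TPM. In the Krüppel-like family Klf5 had 37.7, 28.9, 32.6 and 48.9 TPM, Klf4 2.07, 2.45, 3.16 and 2.6 TPM and Klf17 2.28, 0.96, 1.03 and 0.86 TPM. For Klf17 control replicate 1 stood apart from the others. Sall4, a zinc finger factor, had 46.1 ± 6.82 TPM (SD, n = 4), Tfcp2l1 13.4 ± 1.83 TPM and the nuclear receptor Esrrb 1.73 ± 0.413 TPM. Genes known as targets or markers of the state were high: the F-box gene Fbxo15 had 1117 ± 168 TPM, the paired chromatin factors Dppa2 and Dppa4 524 ± 35.1 TPM and 522 ± 7.99 TPM, and Utf1 205 ± 31.4 TPM. Factors under 1 TPM included Otx2, of the later, primed epiblast, at 0.877, Prdm14, of germ cells, at 0.64, and Sall1 at 0.435.

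The promoter of Nanog is printed because it carries the known composite site of an octamer next to a Sox element, bound by Pou5f1 with a Sox partner. The sequence covers chr6:122707239-122707488 on the plus strand (RefSeq, GRCm38.p6), the 250 bases before the annotated start, and capitals mark the composite, which was searched as TTTGCAT followed, after any 1 base, by ACAATG.
Nanog: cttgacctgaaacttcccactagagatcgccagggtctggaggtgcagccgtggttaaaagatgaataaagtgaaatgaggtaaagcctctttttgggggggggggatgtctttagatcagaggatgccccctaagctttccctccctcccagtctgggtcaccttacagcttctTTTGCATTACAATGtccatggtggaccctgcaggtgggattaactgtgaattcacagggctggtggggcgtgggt
The composite lay at positions -75 to -62 from the start. Of 32851 promoter windows 2 (0.00609%) held these letters on either strand, and both were windows of Nanog, from which the letters are known. The octamer ATTTGCAT alone was in 1.60% of windows. In the same libraries Pou5f1 stood at 681 TPM, Sox15 at 289 TPM and Sox2 at 0.22 TPM; binding was not measured.

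**Figure D2:**
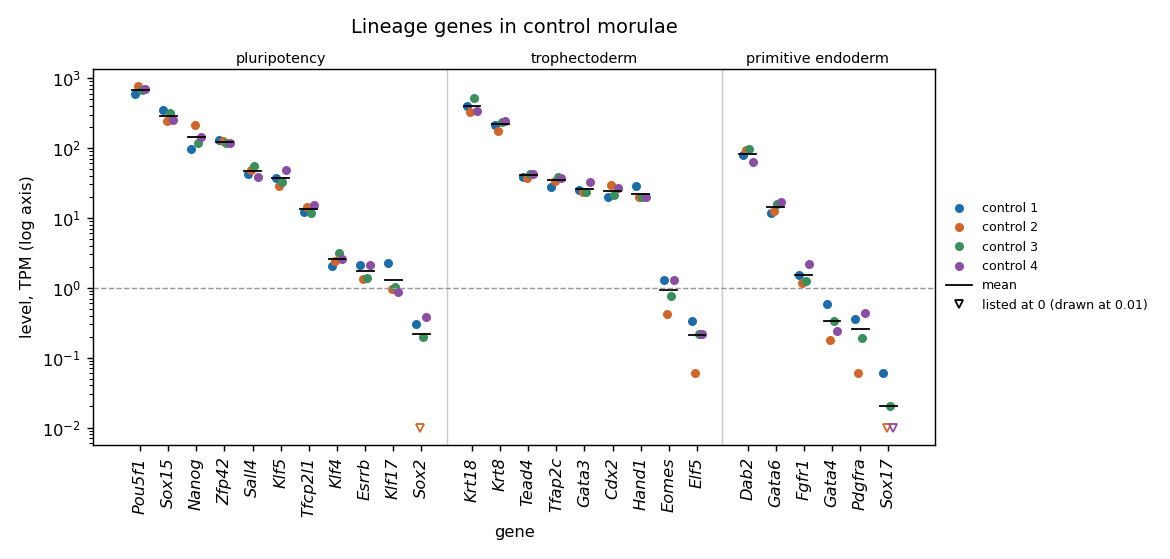
Level (TPM, log axis) of pluripotency, trophectoderm and primitive endoderm genes in the 4 control libraries, one point per library, with the mean as a bar; triangles mark values listed at 0 and the dashed line marks 1 TPM. Pou5f1, Sox15 and Krt18 lie above 100 TPM, Cdx2 and Gata6 between 10 and 100 TPM, and Sox2, Elf5, Gata4, Pdgfra and Sox17 below 1 TPM.

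Trophectoderm genes were expressed in 25 of 36 cases, 69.4% against 47.8% of all genes, with a list median of 10.35 TPM. The early factors of the lineage were all present at similar levels. Tead4, the DNA-binding partner of the Hippo effectors, had 38.8, 37.7, 43.02 and 42.2 TPM, Tfap2c 27.6, 33.9, 38.1 and 37.5 TPM, Gata3 25.3, 23.2, 23.3 and 32.7 TPM and Cdx2 19.8, 29.8, 20.96 and 26.5 TPM. Among these the mean of Tead4 was highest and that of Cdx2 lowest, and the libraries of Gata3 and Cdx2 overlapped. Factors that act later in trophoblast were low: Eomes had 1.29, 0.42, 0.76 and 1.3 TPM and lay under Cdx2 in 4 of 4 libraries, with a ratio of Eomes to Cdx2 of -4.64 ± 0.87 on the log2(TPM + 0.1) scale (SD, n = 4) and -3.71 with a pseudocount of 1, and Elf5 averaged 0.207 TPM. Hand1 was an exception with 28.1, 20.1, 19.96 and 19.6 TPM.

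Several structural genes of the outer epithelium were above 100 TPM. The keratin pair of simple epithelia was led by Krt18, with 402, 329, 514 and 337 TPM, over Krt8, with 216, 172, 233 and 245 TPM. The ratio of Krt8 to Krt18 was -0.86 ± 0.29 on the log2 scale, with the same direction in 4 of 4 libraries. Krt7 averaged 3.77 TPM and Krt19 0.787 TPM. The tight junction claudins Cldn4 (449, 346, 444 and 458 TPM) and Cldn6 (365, 228, 350.5 and 275 TPM) were both lowest in control replicate 2, as were Krt8, Krt18, Plet1 (198, 113, 135 and 156 TPM) and the X-linked homeobox gene Rhox5 (148, 73.7, 133 and 108 TPM). The summed level of the list was lowest in that library too, 1699.6 TPM against 1996.3 to 2253.7 TPM in the others. The same library had the highest level of Nanog (143 TPM on average) and of Pou5f1, and also of Cdx2, so its trophectoderm genes were not all low.

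Primitive endoderm genes were mostly under 1 TPM, with 8 of 25 expressed, 32.0% against 47.8% of all genes. The list median was 0.345 TPM. At 1 CPM in place of 1 TPM, 14 of the 25 were counted, and 10618 of 18257 over all genes. Gata6, the earliest factor of this lineage, was the exception among its regulators at 11.7, 12.6, 15.8 and 17.03 TPM. Nanog exceeded it in 4 of 4 libraries, by 3.27 ± 0.55 on the log2 scale and by 2.62 in CPM. Its successors were under 1 TPM: Gata4 averaged 0.333 TPM, Sox17 0.020, Sox7 0.0125 and the receptor Pdgfra 0.26, while Foxa2 was listed at 0 in every library. The ligand Pdgfa, by contrast, had 15.5, 16.1, 16.6 and 19.01 TPM. The endocytic adaptor Dab2 (80.3, 94.2, 95.3 and 62.6 TPM) and the apolipoprotein Apoe (37.7, 32.5, 44.6 and 50.8 TPM) led the list, and both are also made outside this lineage. Basement membrane genes were low, with Lamb1 at 1.86, Lamc1 at 0.588 and Col4a1 at 0.515 TPM.

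In the FGF pathway, which later divides epiblast from primitive endoderm, the ligand Fgf4 had 1.02, 2.72, 1.57 and 1.87 TPM, lowest in control replicate 1. The receptors were Fgfr1 with 1.54, 1.15, 1.26 and 2.2 TPM and Fgfr2 with 1.96, 1.9, 2.19 and 2.68 TPM. Fgfr2 was higher in 4 of 4 libraries, with a ratio of Fgfr1 to Fgfr2 of -0.51 ± 0.24 on the log2 scale, although the ranges of the receptors over all libraries overlapped. Of 44 listed genes of FGF, LIF, Nodal, BMP and WNT signalling, 21 were expressed, close to the 47.8% of all genes at this threshold. The count depended on the scale: at 1 CPM it was 35, with 10618 of 18257 over all genes. At 5 TPM it was 10, with 5528 over all genes. The highest listed genes were inhibitors of differentiation and a ligand: Id3 (70.6 ± 14.1 TPM), Id2 (56.3 TPM) and Gdf3 (60.3 ± 5.44 TPM), a secreted ligand related to Nodal. Nodal averaged 0.0775 TPM, its antagonist Lefty1 0.333, the LIF receptor Lifr 0.777, its co-receptor Il6st 0.020 and Bmp4 0.42. Spry2, an inhibitor of FGF signalling, stood at 20.4 TPM.

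Compaction, polarity and junction genes were expressed in 36 of 45 cases. Actin and its regulators dominated: Actg1 had 3554 ± 358 TPM (SD, n = 4), the myosin light chain Myl6 1897 TPM, cofilin, Cfl1, 1862 TPM and Actb 952 ± 159 TPM. Cdh1, the E-cadherin through which blastomeres compact, had only 10.01, 7.67, 9.86 and 12.1 TPM, and its partners Ctnna1 and Ctnnb1 averaged 35.8 and 16.3 TPM. N-cadherin, Cdh2, averaged 0.055. Epcam, another adhesion protein of epithelia, was much higher at 319.7, 328, 370.4 and 390.4 TPM. The gap junction gene Gja1 (209 ± 52.2 TPM) exceeded the apical polarity genes Prkcz (16.4), Pard6a (15.9), Pard6b (3.49), Prkci (2.3) and Pard3 (1.02 TPM). Water channel Aqp3 and the sodium pump subunit Atp1b1, which serve blastocoel filling, stood at 42.9 and 21.5 TPM.

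The Hippo pathway, which reads cell position and controls Tead4, was expressed in 12 of 19 genes, 63.2% against 47.8% of all genes. None reached 100 TPM. Of its effectors Wwtr1 (TAZ) had 22.5, 11.9, 16.1 and 19.9 TPM and Yap1 1.76, 2.34, 1.97 and 2.06 TPM, so Wwtr1 was the higher in every library. Tead4 was well above its relatives Tead2 (5.01 TPM), Tead1 (0.16) and Tead3 (0.0775). The kinase Lats2 averaged 5.305 TPM and Lats1 0.117, the upstream regulator Nf2 11.8, and the junctional angiomotins Amotl2 1.33 and Amot 0.573.

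Metabolic genes differed sharply between pathways. Nuclear-encoded genes of oxidative phosphorylation were expressed in 82 of 84 cases with a median of 335 TPM, genes of pyruvate entry and the TCA cycle in 36 of 42 with a median of 33.9 TPM, and genes of glycolysis and lactate in 21 of 35 with a median of 2.30 TPM. Summed over the lists this was 42446 ± 509.6, 4273 ± 219.6 and 1808 ± 183.5 TPM (SD, n = 4). Over all genes 47.8% were expressed and the median was 0.82 TPM. The lists differ in how many tissue-specific forms they hold. Respiratory chain messages were also steady, the expressed members having a median CV of 6.35%, and their summed level had a CV of 1.201%. The ATP synthase subunit gene Atp5g1 (2654 ± 151 TPM) and the cytochrome oxidase genes Cox7c (2032 ± 111 TPM) and Cox8a (1707 ± 44.8 TPM) were highest. Cox6a2 and Cox4i2, forms of muscle and lung, averaged 0.245 and 0.93 TPM. Genes encoded in mitochondrial DNA were not analysed here.

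In the glycolysis list 5 of 35 genes reached 100 TPM. Aldoa, Gapdh, Pgam1, Eno1 and Pkm were above the hexokinases and phosphofructokinases named here. Aldoa had 511, 496, 612 and 519.8 TPM, Gapdh 449.8, 262, 382 and 518 TPM, Pgam1 396 ± 28.2 TPM and Eno1 130.1 ± 26.3 TPM. The hexokinases Hk1 (2.99, 4.46, 3.38 and 3.19 TPM) and Hk2 (4.57, 3.38, 4.07 and 5.64 TPM) were far below Aldoa and did not keep an order, Hk2 being higher in 3 of 4 libraries. Phosphofructokinase was carried by the liver form Pfkl, 4.69, 2.63, 5.18 and 3.51 TPM, over the platelet form Pfkp at 0.15 TPM and the muscle form Pfkm at 0.312 TPM. Pyruvate kinase Pkm had 119, 83.4, 126 and 124 TPM, with control replicate 2 below the rest. That library was also lowest for Gapdh and Ldha.

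Glucose transporters and lactate dehydrogenases were compared by isoform. The transporter Slc2a3 (GLUT3) had 42.4, 36.7, 37.7 and 42.1 TPM and Slc2a1 (GLUT1) 5.82, 5.34, 6.26 and 6.6 TPM. Slc2a3 was the higher in 4 of 4 libraries, with a ratio of Slc2a1 to Slc2a3 of -2.71 ± 0.12 on the log2(TPM + 0.1) scale (SD, n = 4) and of -3.38 in CPM. Slc2a8 (GLUT8), another transporter of the family, averaged 44.98 TPM, with libraries that overlapped those of Slc2a3. Lactate dehydrogenase A, Ldha, had 48.02, 25.9, 33.9 and 28.2 TPM and Ldhb 8.11, 3.63, 4.56 and 3.44 TPM, and Ldha was the higher in 4 of 4, by 2.80 ± 0.19. Of 18 such pairs compared, 16 kept their direction in all 4 libraries. With 4 libraries the smallest 2-sided p of an exact sign test is 0.125, so no test was made. The lactate and pyruvate transporters Slc16a1 and Slc16a3 averaged 2.3 and 0.135 TPM, and Slc16a7 was listed at 0.

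Both subunits of the mitochondrial pyruvate carrier had high messages, Mpc1 at 526, 543, 578 and 508 TPM and Mpc2 at 316, 296, 311 and 316 TPM, with Mpc1 above Mpc2 in 4 of 4 libraries. Pdhb, a subunit of pyruvate dehydrogenase, had 518 ± 34.9 TPM and the kinases that switch this enzyme off were low: Pdk3 had 4.38 ± 1.33 TPM, Pdk1 averaged 0.0575 TPM, Pdk2 0.775 and Pdk4 0.0025. Within the TCA cycle Mdh2 led at 778 ± 53.6 TPM, then Idh3g at 358 ± 29.4 TPM, with citrate synthase, Cs, at 85.5 ± 7.703 TPM. Pyruvate carboxylase, Pcx, which refills the cycle, averaged 0.263 TPM.

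**Figure D3:**
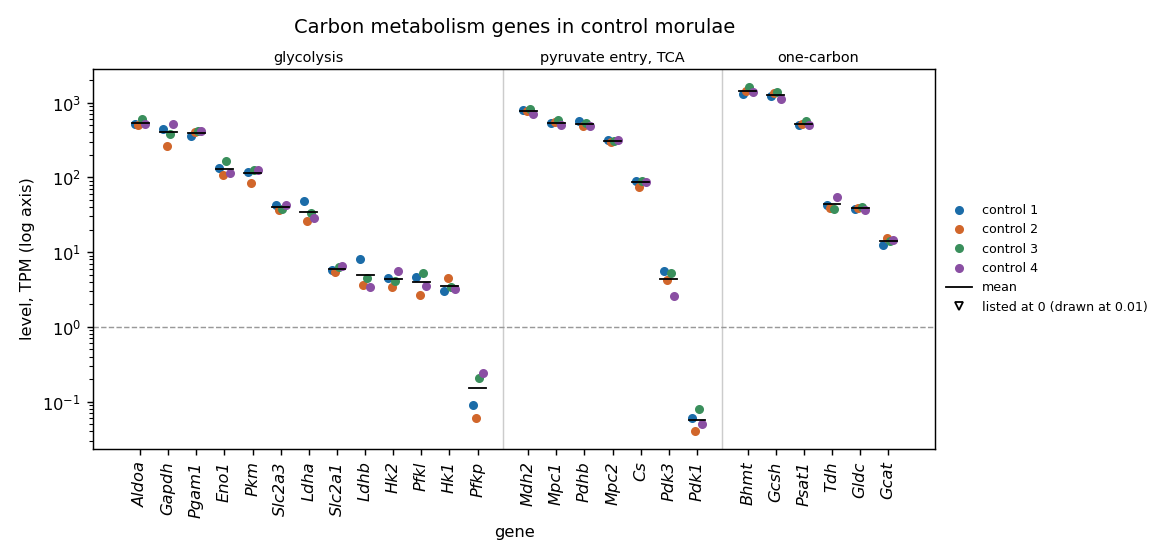
Level (TPM, log axis) of carbon metabolism genes in the 4 control libraries, one point per library, with the mean as a bar; the dashed line marks 1 TPM. Slc2a3 lies above Slc2a1 and Ldha above Ldhb in every library, and Pdk1 and Pfkp lie below 1 TPM.

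Genes of threonine, serine, folate and methionine metabolism were expressed in 27 of 30 cases, with a median of 26.5 TPM. Bhmt, which remakes methionine with a methyl group from betaine, ranked 139 with 1319.7, 1427, 1642 and 1387 TPM, and Gcsh, a carrier protein of glycine cleavage, had 1240.0, 1338, 1395 and 1119 TPM. Serine synthesis was represented by Psat1, 507, 512, 560.1 and 503 TPM, and Phgdh, 187, 232, 137 and 149.7 TPM. Threonine dehydrogenase, Tdh, through which mouse pluripotent cells feed glycine to folate metabolism, had 43.2, 38.6, 38.01 and 53.9 TPM, with its partner Gcat at 14.1 ± 1.23 TPM and the glycine decarboxylase Gldc at 38.4 ± 1.51 TPM. Thymidylate synthase, Tyms, reached 178 ± 11.7 TPM. The liver enzymes Mat1a and Gnmt were at 0 and 0.388 TPM.

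Lipid genes were expressed in 31 of 37 cases, 83.8% against 47.8% of all genes, with a median of 16.5 TPM. Fatty acid binding proteins were highest, Fabp3 at 1651, 1530.3, 1599 and 1521 TPM and Fabp5 at 307, 305, 212 and 309.8 TPM, the latter low in control replicate 3. Acadm and Acadl, dehydrogenases of beta-oxidation, averaged 151 and 124 TPM, and Plin2, which coats lipid droplets, 97.4 TPM. The entry step Cpt1a was at 3.26 TPM and fatty acid synthase, Fasn, at 2.397. Both were far below Fabp3 on the per-length scale of TPM.

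Solute carriers were expressed in 152 of 339 cases, 44.8% against 47.8% of all genes. Those of the inner mitochondrial membrane came before all others: the ADP/ATP carriers Slc25a5 (1387 ± 128 TPM) and Slc25a4 (532 TPM) and the phosphate carrier Slc25a3 (789). At the cell surface Slc3a2, the heavy chain shared by several amino acid exchangers, had 210.3 ± 33.3 TPM. The folate transporter Slc46a1 averaged 117 TPM, the inositol transporter Slc5a11 114 and the vitamin transporter Slc5a6 111.

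Oocyte and maternal-effect genes were expressed in 19 of 59 cases, 32.2% against 47.8% of all genes. Their median was 0.378 TPM, under the 0.82 TPM of all genes. Most growth factors, zona pellucida proteins and meiotic regulators of the oocyte that are named here were under 1 TPM. Gdf9 had 0.59, 0.49, 0.56 and 0.82 TPM and Bmp15 0.040, 0.030, 0 and 0.12 TPM, while Zp1 and Zp2 averaged 0.040 and 0.060 TPM and Mos was listed at 0 in all 4. Zp3 was an exception with 9.19, 5.42, 7.97 and 9.63 TPM. The zona itself had been removed; whether oocyte-derived RNA or embryonic transcription gave a message cannot be told apart in these data.

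Members of the subcortical maternal complex, a protein assembly laid down in the oocyte, had very unequal messages. Khdc3 (Filia) had 1156, 1217, 1346 and 1384 TPM, Ooep 18.1, 9.99, 12.99 and 13.2 TPM, Padi6 8.97, 12.4, 14.9 and 9.05 TPM, Tle6 1.38, 0.74, 2.64 and 2.1 TPM and Nlrp5 (Mater) 0.15, 0.090, 0.090 and 0.070 TPM. Khdc3 was thus the highest by far, above Pou5f1 (681 TPM), and Nlrp5 the lowest. Khdc3, Ooep and Dppa5a belong to the KH domain family on chromosome 9 and resemble each other. With Dppa3, Khdc3 was the only member of the maternal list at 100 TPM or more. The nuclear protein Npm2 had 2.21, 2.56, 2.06 and 2.08 TPM, the linker histone of the oocyte, H1f8, averaged 0.843 TPM, and the RNA-binding regulators Zar1, Cpeb1 and Btg4 0.040, 0.40 and 0.255 TPM.

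Genes of zygotic genome activation and the 2-cell stage were expressed in 16 of 35 cases, 45.7% against 47.8% of all genes, and their levels split by family. Duxf3, the homeobox gene that starts this programme, was listed at 0 in all 4 libraries. Zscan4c and Zscan4d, its best known targets, averaged 0.0125 and 0.070 TPM, and Zfp352 had 0.95, 0.020, 0.18 and 0.17 TPM. Families that persist longer were high: Pramel6 had 312, 344, 248 and 364 TPM, Pramel5 149 ± 21.2 TPM and Pramel7 99.7 ± 10.6 TPM. Obox6, a homeobox gene of cleavage stages, had 178, 120.2, 196 and 64.7 TPM, with control replicate 4 the lowest. Cphx1 went from 0.040 to 14.8 TPM, again lowest in control replicate 4, and Tdpoz5 from 2.53 to 18.9 TPM, highest in control replicate 1. These are multicopy families with near-identical members, so how reads were divided within them is uncertain. The heat shock gene Hsp90aa1, an early activated gene, was at 1953 ± 141 TPM. The plot of maternal, cleavage-stage and sex-linked genes shows how far these groups stood apart.

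**Figure D4:**
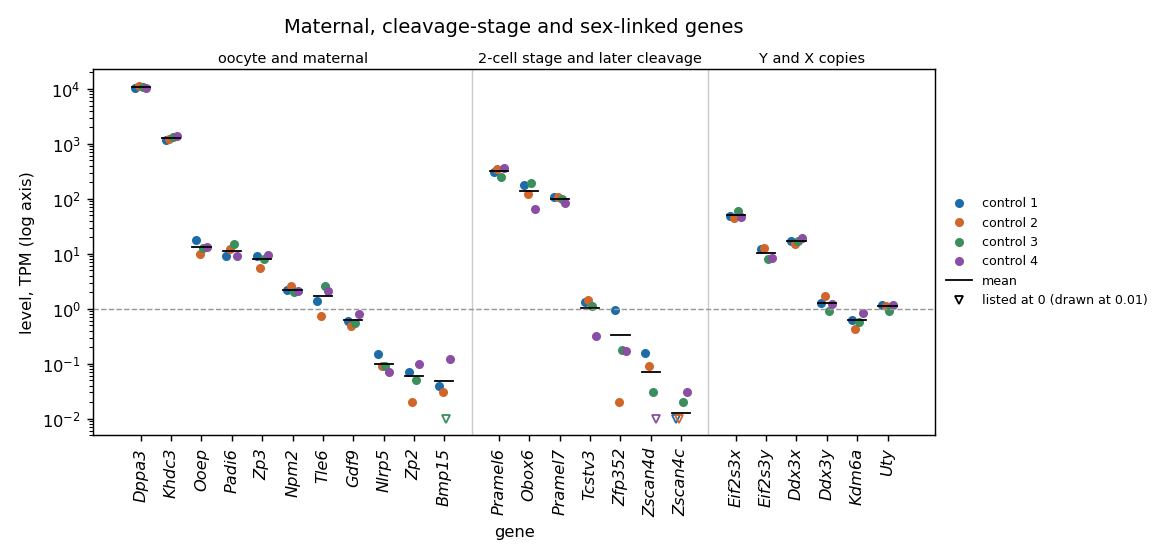
Level (TPM, log axis) of maternal-effect genes, genes of the 2-cell and later cleavage stages, and Y-linked genes with their X-linked copies, one point per control library and the mean as a bar; triangles mark values listed at 0 and the dashed line marks 1 TPM. Dppa3 and Khdc3 lie above 1000 TPM, whereas Nlrp5, Zp2, Bmp15 and both Zscan4 genes lie below 0.2 TPM in every library.

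Of 44 chromatin regulators 36 were expressed, 81.8% against 47.8% of all genes. Levels were mostly modest, with a median of 4.67 TPM and 2 genes at 100 TPM or more. These were the deacetylase Hdac1, 335, 397, 350.4 and 282 TPM, and the arginine methyltransferase Prmt1, 187, 298, 294 and 216 TPM. Of the listed acetyltransferases Kat8 averaged 38.3 and Kat7 26 TPM, while Hat1, a histone acetyltransferase outside the list, averaged 248.98 TPM. Ep300 (p300) and Crebbp (CBP) had 0.26, 0.28, 0.11 and 0.16 TPM and 0.66, 0.61, 0.72 and 1.03 TPM, at counts of 164 and 740 over the 4 libraries. Eed, Ezh2 and Suz12 of Polycomb complex PRC2 averaged 90.6, 14.7 and 5.04 TPM.

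The DNA methylation machinery was led by Dnmt3l, the catalytically inactive partner of the de novo enzymes, at 55.4, 47.9, 55.3 and 61.5 TPM. Dnmt3a had 5.46, 8.57, 6.7 and 6.11 TPM, Dnmt3b 4.25, 4.24, 3.34 and 3.9 TPM and the maintenance enzyme Dnmt1 0.94, 0.70, 1.44 and 1.21 TPM. Dnmt3a exceeded Dnmt3b in 4 of 4 libraries, by 0.74 ± 0.31 on the log2 scale, and by 2.98 in CPM, which is not divided by transcript length. Of the Tet dioxygenases, Tet2 had 4.65, 5.81, 5.45 and 4.81 TPM, above Tet1 at 0.325 and Tet3 at 0.045 TPM. Histone variants with polyadenylated messages were abundant, with H2afz at 2544 ± 195 TPM, H3f3a at 1026 ± 79.5 TPM, H3f3b at 758 ± 68.7 TPM and H2afx at 383 ± 13.2 TPM. Messages of the replication-dependent histones carry no poly(A) tail for the most part and are poorly seen by this method. Imprinted genes were expressed in 18 of 40 cases, close to the share of all genes, led by Snrpn (149.9 ± 9.73 TPM), Mcts2 (96.2 ± 7.56 TPM) and Gab1 (85.2 ± 16.9 TPM), while Igf2 and Peg3 averaged 0.0975 and 0.168 TPM.

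Cell cycle genes were expressed in 39 of 49 cases, 79.6% against 47.8% of all genes, with a median of 21.4 TPM. Mitotic regulators were highest: Ccnb1 (cyclin B1) had 489.6, 427, 471 and 318 TPM, lowest in control replicate 4, Aurka 369 ± 44.9 TPM, Cdc20 294 ± 20.6 TPM and the licensing inhibitor Gmnn 262 ± 7.32 TPM. D-type cyclins were represented by Ccnd3, 143, 129, 152 and 122 TPM, with Ccnd1 at 1.24 and Ccnd2 at 0.0575 TPM. The ratio of Ccnd2 to Ccnd3 was -9.77 ± 0.31 on the log2(TPM + 0.1) scale and -7.02 with a pseudocount of 1. Restraints of the G1 phase were low, Rb1 at 0.0275 and Cdkn1b at 0.020 TPM, but Cdkn1a (p21) had 100.3, 30.5, 104 and 71.9 TPM, lowest in control replicate 2.

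In the BCL2 family and p53 list 17 of 28 genes were expressed, 60.7% against 47.8% of all genes. The pro-apoptotic members Bax, 364, 311, 355 and 404 TPM, and Bad, 156 ± 19.2 TPM, were high. Guardians were lower: Bcl2l1 had 11.8, 9.11, 14.1 and 11.6 TPM, Mcl1 8.63, 10.6, 8.41 and 7.8 TPM, and Bcl2 averaged 0.015 TPM with 3 counts in all. Bcl2l1 was above Mcl1 in 3 of 4 libraries on the TPM scale, and in CPM, which is not divided by length, the mean log2 ratio changed sign to -0.16. Trp53 had 81.8, 80.8, 99.1 and 86.3 TPM. The initiator caspase Casp8 and the sensor Apaf1 were low, at 0.0725 and 0.285 TPM. DNA repair genes were expressed in 35 of 40 cases, 87.5% against 47.8% of all genes. They were led by the base excision genes Polb (894 ± 155 TPM) and Apex1 (253 ± 35.95 TPM) and by H2afx. The large damage kinases Atm, Atr and Prkdc averaged 1.39, 0.395 and 0.245 TPM.

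Y-linked messages were counted in every pool. Eif2s3y had 12.3, 12.6, 7.92 and 8.45 TPM, Ddx3y 1.28, 1.68, 0.90 and 1.21 TPM and Uty 1.18, 1.14, 0.92 and 1.16 TPM. The X-linked counterparts of Eif2s3y and Ddx3y were higher in 4 of 4 libraries: Eif2s3x had 49.5, 44.1, 60.2 and 47.6 TPM and Ddx3x 17.2, 15.1, 17.2 and 19.5 TPM. The ratio of Eif2s3y to Eif2s3x was -2.30 ± 0.50 and that of Ddx3y to Ddx3x -3.69 ± 0.44 on the log2 scale. The first was -3.37 in CPM and the second -3.02 with a pseudocount of 1. How many of the 3 embryos in a pool were male was not analysed here. Kdm5d, another Y-linked gene, averaged 0.065 TPM and Uba1y went from 0.39 to 2.43 TPM. Of 36 Y-linked genes 4 were expressed. X-linked genes were expressed in 285 of 747 cases (38.2%) with a median of 7.60 TPM among those expressed, and autosomal genes in 8422 of 17419 (48.4%) with a median of 9.53 TPM. The most abundant X-linked genes apart from ribosomal proteins were Hprt (2316 ± 273 TPM) and Slc25a5. Noncoding genes such as Xist were not analysed here.

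The label was set beside marker lists of the stage and of cells that could be carried along. These lists were chosen with earlier results of these data known, so they are no independent check of the label. All 13 listed markers of morula and early blastocyst were expressed, against 47.8% of all genes. They ranged from Dppa3 at 10807 down to Cdh1 at 9.902 TPM. Of 13 cumulus and granulosa markers 2 were expressed, Amhr2 with 21.1, 12.6, 13.7 and 12.7 TPM and Vim with 1.03 TPM, while Fshr, Cyp19a1, Has2, Ptx3 and Inhba were at 0; the list summed to 13.7 to 22.8 TPM per library. None of 6 sperm markers was expressed. Leukocyte markers were at 2 of 8, with the lysosomal gene Cd68 at 27.6, 19.7, 38.7 and 24.6 TPM and Ptprc (CD45) at 0.0050 TPM. Of 6 erythroid markers only Hba-a1 was expressed, with 32.4, 28.1, 20.4 and 44.2 TPM, while its near-identical copy Hba-a2 averaged 0.593 and the beta chain Hbb-bs 0.025 TPM. In the oviduct list only Epcam was expressed, which the embryo also makes, and Ovgp1 averaged 0.0925 TPM. Fibroblast markers were at 1 of 8 and oocyte markers at 1 of 9. Of 18 genes of germ layers and organs 1 was expressed, Gsc, with 3.25, 3.57, 3.41 and 5.65 TPM, highest in control replicate 4; Mixl1 averaged 0.87 TPM, and T, Hand2 and Alb were at 0.

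Genes often used to scale measurements between samples differed in level and in spread. Ppia had 5078, 4919, 4838 and 5219 TPM, with a CV of 3.38%, and Hprt 2159.7, 2214, 2725 and 2167 TPM, with a CV of 11.8%. Gapdh had a CV of 27.1%, Actb of 16.7% and Tbp, at 20.3 ± 2.002 TPM, of 9.84%. Of 18 listed reference genes all were expressed, against 47.8% of all genes, and their median CV was 12.2%.

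The pools resembled each other closely across genes. The Pearson correlation of log2(TPM + 1) was 0.992 to 0.995 over the 6 pairs of libraries, across genes, which are not independent replicates. Between 0.951% and 2.69% of expressed genes differed at least 2-fold within a pair, the most between control replicates 1 and 2. The median CV of expressed genes was 14.01%, and the median CV that counting alone would give was 4.37%. It fell from 18.3% between 1 and 10 TPM to 12.02%, 8.10% and 5.75% in the higher classes, where counting alone would give 7.16%, 2.87%, 1.31% and 0.541%. The biological coefficient of variation estimated by edgeR was 19.2% over 11157 genes with at least 10 counts in every library.

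**Figure D5:**
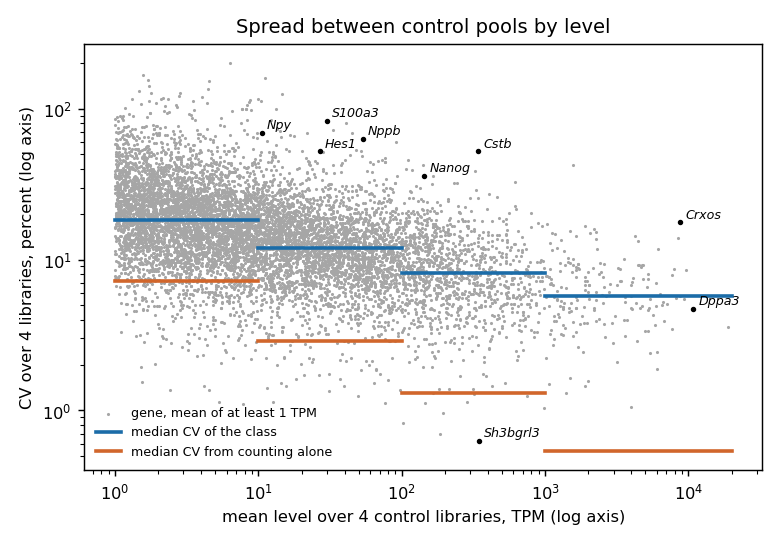
CV over the 4 control libraries (percent, log axis) against mean level (TPM, log axis), one point per gene of at least 1 TPM; blue bars give the median CV of each level class and orange bars the median CV that counting alone would give. The blue bars fall from 18.3% to 5.75% and stay above the orange bars, and Nanog, Cstb, Nppb and Crxos lie well above the median of their class.

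Steady and variable genes were found among the 4264 genes of at least 10 TPM. A CV under 5% was seen for 491 genes (11.5%), and 154 genes had a CV of at least 30%. The lowest CVs were those of Sh3bgrl3, 344, 340.5, 344 and 346 TPM, Atpif1, the inhibitor of the ATP synthase, 184, 187, 186 and 185 TPM, Ccs, the copper chaperone of superoxide dismutase, 102 TPM, and Xaf1, 195 TPM. The nuclear transport GTPase Ran (977 TPM, CV 1.04%), Rpl9, Psmg3, Phpt1, Atg101 and Vps11 completed the 10 lowest. Whether these genes are as steady in other embryos was not tested.

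The highest CVs fell mostly on predicted genes, 7 of 10, with S100a3, Sp140 and Eif4a3l1 as the others. S100a3, a calcium-binding protein, had 66.03, 12.5, 14.5 and 26.5 TPM, Sp140, a nuclear body protein, 28.5, 13.2, 8.21 and 6.28 TPM, and Eif4a3l1, a copy of an RNA helicase gene, 28.2, 10.8, 6.08 and 9.14 TPM. In all 3 control replicate 1 was the highest. Chosen after their values were seen, Cstb, a protease inhibitor, showed the same library high, with 590.4, 201, 225 and 353 TPM. Control replicate 2 was the highest for Hes1, a Notch target, with 14.8, 46.5, 25.7 and 19.8 TPM, for the splicing factor Srsf2, with 25.8, 84.3, 42.7 and 38.1 TPM, and for the natriuretic peptide Nppb, with 57.2, 99.6, 29.5 and 26.97 TPM. Rnaset2b, with 13.6, 82.9, 56.3 and 26.8 TPM, followed the same order of libraries as Hes1 and Srsf2.

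Control replicate 3 had the highest level of the 4 for 39.8% of expressed genes and the lowest for 12.5%, against 18.8% to 21.8% and 25.3% to 33.2% in the others. This library also had the lowest summed level of ribosomal proteins. When TPM was rescaled without ribosomal proteins, control replicate 3 was the highest for 33.7% of the 8643 other expressed genes and the lowest for 15.5%, against 40.15% and 11.9% of the same genes before rescaling. It was still the library most often highest. The median CV of expressed genes was then 13.8%. Rpl41 and Rplp0 (4986, 4944, 4286 and 5070.4 TPM) were both lowest in that library.

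Promoter sequence was compared between the level classes. Windows on chr18 were left out, so genes there count as having no window. With this exclusion, RefSeq windows were found for 79.0% of all genes, and for at least 80% of genes in 3 classes. TATAAA lay within the 50 bases before the start in 2.02% of genes between 1 and 10 TPM, 1.43% between 10 and 100 TPM and 1.75% between 100 and 1000 TPM. The median ratio of observed to expected CpG over the window was 0.772, 0.806 and 0.812 in the same order. For a gene with several windows, TATAAA in any of them was counted and the highest CpG ratio was taken. Among genes of at least 1000 TPM and those under 1 TPM fewer than 80% had a window, so the check is void there.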

How the data were processed

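Polyadenylated RNA of mouse morulae was measured in 4 control libraries of 3 pooled embryos each, and only these entered the values. Per the submitters' processing notes, the genome was GRCm38.p6 and the tools were RSEM 1.2.28 and HISAT2 2.2.1 with DESeq2 1.40.2. In 1 table of 18257 protein-coding genes the authors deposited, per the file headers, estimated counts, FPKM, TPM and normalized counts (a scaled signal) for each library. The log2 fold changes, p-values and q-values that the authors deposited beside them were not used. The sources used here do not give strandedness.

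Levels are the deposited TPM, which add to the same total in each library. From them the mean, SD and CV over the 4 libraries, the level classes (1, 10, 100 and 1000 TPM), the counts of list members and the log2 ratios of 18 pairs (pseudocount 0.1) were computed in Python 3.11.15 with pandas 2.3.3 and numpy 2.4.6. These are descriptions of 1 group, with no test. The biological coefficient of variation came from edgeR 4.0.16 in R 4.3.3 (estimated counts rounded to whole numbers, TMM factors, at least 10 counts in every library). On simulated counts for the control libraries over 11157 genes with a true value of 15%, its median was 16.9%. For 200 genes simulated at 60% it gave 25.1%, since edgeR draws single genes towards the trend. Total estimated counts of 23641781 to 25677701 per library limit the precision of levels under 1 TPM. Reads copied by PCR are counted like separate molecules. No library looked like a repeated deposit of another (chi-square per degree of freedom of 18.8 to 33.1 over the 6 pairs).

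The 24 gene lists and 8 marker lists held 933 symbols, of which 909 were found. Some members are counted but not reported by name here. The members and lists were chosen with earlier results of these data known. The rule for named genes takes the 20 most abundant genes, the 4 highest members of each list, the 10 highest and 10 lowest CVs among genes of at least 10 TPM, all pair members and a fixed set of lineage, maternal, metabolic and chromatin genes; predicted genes are counted but not named. Gene positions are those of NCBI's table for GRCm38.p6, promoter windows from RefSeq on the same build (32851 windows, without those on chr18) and transcript lengths from GENCODE. Alternatives were rescaled FPKM, CPM, medians, other thresholds, filters, pseudocounts, scaling factors and motif windows, DESeq2 1.42.0 for dispersion, and leaving out each library. TPM rescaled without ribosomal proteins was added for the class counts, the CV and the counts of genes highest in each library after seeing the data.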

Additional observations from a re-analysis of the deposited data

Results flagged for a closer look

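In 152 genes and 24 lists examined, 11 had 1 control library that stood apart from the other 3, by a gap above Dixon's 95% critical value for 4 samples. Chance flags about 1 in 20, so a number of this size is near what chance gives, and no cause was tested. Control replicate 3 stood apart in 6 of the 11. It was low for Rplp0 (4286 TPM against 4944 to 5070 in the others) and Fabp5 (211.9 against 304.6 to 309.8), and for the Y-linked gene Uty (0.92 against 1.14 to 1.18). It was high for the serine synthesis gene Psat1 (560.1 against 503 to 512), the repair scaffold Xrcc1 (78.0 against 57.5 to 59.9) and the summed primitive endoderm list (190.8 against 163.8 to 167.7 TPM). Control replicate 2 was low for Cldn4 (346 against 444 to 458), Pkm (83.4 against 119 to 126) and the arginine methyltransferase Prmt5 (63.3 against 69.7 to 70.7). Control replicate 4 was high for Gsc (5.65 against 3.25 to 3.57) and control replicate 1 for Klf17 (2.28 against 0.86 to 1.03).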

How the results depend on the processing

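No paired analysis was possible because the values come from 1 group and from no test. The number of expressed genes was 5528 with a threshold of 5 TPM. The 10, 100 and 1000 most abundant genes held 8.35%, 31.6% and 73.0% in CPM, and 11.2%, 36.1% and 79.3% of TPM without ribosomal proteins. The median CV was 13.4% with CPM and TMM factors, 25.3% over all genes without a filter, 12.5% with at least 100 counts, and 12.5% to 13.7% with 1 library left out. The common biological coefficient of variation was 22.7% without a filter, 15% with at least 100 counts, and 17.8% to 20.2% with 1 library left out. Its median over genes (19.1%) was 27.0% and 14.8% under those filters, 17.3% with DESeq2, and 18.1% to 20.5% with 1 library left out. The mean Pearson correlation (0.994) was 0.987 with a pseudocount of 0.1, 0.996 with 5 and 0.989 over expressed genes. TATAAA anywhere in the window was found in 5.39%, 5.24% and 5.48% of genes in the 3 classes in order, and TATAA before the start in 3.78%, 2.58% and 3.73%. Bcl2l1 over Mcl1 changed sign to -0.16 in CPM. Of the other values for lists, 177 stayed within 1.5 times and 15 did not. Of those for pairs, 105 moved by less than the spread and 20 moved further with no change of sign, all with CPM or a pseudocount of 1. Without control replicate 2 the germ layer list had 2 expressed members in place of 1. The remaining 71 values for class counts, shares, spread and correlation stayed within the spread or 1.5 times.

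With 4 pools of 3 embryos the SD of any single level is itself imprecise. Levels under 1 TPM rest on few counts for many genes, with a median of 6.25 per library among genes above 0 and under 1 TPM. The counts differ widely between genes: at about 1 TPM they ranged from 3.995 to 400.6 per library. Whole embryos were measured, so levels in inner and outer cells are not resolved, and copies of multigene families share reads.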
